A study of Capra hircus with 20 samples.

Results

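The corticotropin-releasing hormone (CRH) and thyrotropin-releasing hormone (TRH) systems were represented by 8 of the 21071 genes with deposited values. They were taken by symbol, matched to the NCBI Gene identifiers of the goat annotation, and all 8 symbols were found. CRH (Gene ID 102171263) and UCN3 (102176053) encode ligands, CRHR1 (102191647) and CRHR2 (102186367) encode their receptors, and CRHBP (102172544) encodes a secreted binding protein. TRH (108633383) encodes the precursor of the thyrotropin-releasing tripeptide, TRHR (102187694) its receptor, and TRHDE (102175003) the ectoenzyme that degrades it.

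CRH is released from neurons of the paraventricular nucleus into the portal blood and drives the secretion of ACTH from the pituitary, and from there of glucocorticoids from the adrenal. TRH neurons of the same nucleus drive the secretion of TSH and are held back by thyroid hormone. Both peptides are also made by neurons elsewhere in the brain, including the cortex, the amygdala and the thalamus, where their receptors are expressed as well.

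The samples were hypothalamic tissue of 20 healthy female Jining grey goats, kept under the same management and given no treatment. The groups were D1, M2, M4 and M6, aged 1, 60, 120 and 180 days, with 5 goats and 1 strand-specific library per goat in each. The study followed these stages as the course of sexual maturation. The breed reaches puberty early, and stage was the only factor by which the sample labels separated the groups. Values are FPKM (fragments of a gene adjusted for exon length and library size), which allows levels of different genes to be set side by side because it is scaled by length. In a piece of tissue, fewer cells that express a gene and less RNA of the gene per cell cannot be told apart. The p-values of the stage tests rest on the spread between the goats sampled. Those of the correlations come from shuffling the 20 libraries without regard to stage.

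FPKM summed to between 260199 and 377479 per library, and between 16.5% and 25.2% of all genes were listed at 0. That share differed between stages, with 16.5% to 17.9% at D1 and 19.9% to 22.5% at M2. At M4 it was 19.4% to 23.4% and at M6 17.4% to 25.2%. Its part in the values of low genes was not tested. Of 8058 genes whose median reached 5 FPKM, at most 2 were listed at 0 in a library. The number of reads behind a value is unknown.

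The tissue label was checked against marker genes before the members were compared. NKX2-1, a transcription factor of the ventral hypothalamus, had a median of 0.306 FPKM and was listed at 0 in 4 libraries. RAX, a regulator of hypothalamic identity and of tanycytes, was listed at 0 in 15 libraries, and NR5A1, which marks the ventromedial nucleus, in 14. Some of the other markers among the 12 listed were above 0 in most libraries. FOXB1 was listed at 0 in 1 library with a median of 0.612 FPKM, and LHX1 in 2 with a median of 0.272 FPKM. By contrast, SIX6 was listed at 0 in 13 libraries, FEZF1 in 11 and BSX in 10. SIM1 and OTP, the factors that specify paraventricular neurons, ranged from 0 to 13.6 FPKM and from 0 to 11.1 FPKM. The levels of these markers therefore differed between goats by a wide margin.

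In 5 libraries there was more than 10 FPKM of SLC17A7, DRD1 or GBX2, markers of cortex, striatum and thalamus, and both the genes and the cut were chosen after the values were seen. M4 replicate 1 had 68.0 FPKM of SLC17A7, the vesicular glutamate transporter of cortical projection neurons, against a median of 0.215 over the 20 libraries, together with 23.7 FPKM of NEUROD6. In the same library NKX2-1 stood at 0.0296 FPKM and OTP at 0. M4 replicate 2 had 18.2 FPKM of GBX2 and 86.3 FPKM of TCF7L2, which mark the thalamus (20-library medians 0.303 and 10.8), with NKX2-1 and OTP both at 0. DRD1, a dopamine receptor of striatal neurons, reached 151 FPKM in D1 replicate 4, 57.2 FPKM in M2 replicate 4 and 56.4 FPKM in M6 replicate 2, against a median of 0.906, and 10.1 FPKM in M4 replicate 1. NKX2-1 was not low in D1 replicate 4, M2 replicate 4 and M6 replicate 2, at 1.63, 2.23 and 1.69 FPKM against a median of 0.306. D1 replicate 2, M4 replicate 3 and M6 replicate 1, which are not among the 5, listed NKX2-1 at 0. Over the whole lists, the 6 cortical markers summed to between 0.415 and 5.42 FPKM in the libraries of D1, M2 and M6, and reached 105 FPKM in M4, where the median was 0.759 FPKM. The 6 striatal markers had sums of up to 603 FPKM in D1, 156 in M2, 26.6 in M4 and 241 in M6, with stage medians of 10.2 to 14.8 FPKM. The 6 thalamic markers reached 212 FPKM at M4 against stage medians of 27.6 to 40.4 FPKM. Every library was kept, and the F tests, the largest stage differences and the correlations between members are also given without these 5 libraries. The 8 pituitary markers measured summed to at most 4.90 FPKM in a library of M2 and 4.04 FPKM in one of M6, with stage medians of 0.454 to 1.86 FPKM. TSHB was listed at 0 in 19 libraries and POU1F1 in 18, whereas LHB was listed at 0 in 6 and GNRHR in 2.

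CRH, which lies on chromosome 14 at 51584197 to 51585905 of the ARS1.2 build, was low in most goats and above 1 FPKM in 5 of 20. At D1 its level was 1.55, 0.109, 0.1002, 0.268 and 0.0533 FPKM in replicates 1 to 5. At M2 it was listed at 0 in replicates 1, 2 and 3 and stood at 2.36 and 1.43 FPKM in replicates 4 and 5. Each of these stages therefore held goats on both sides of 1 FPKM. At M4 the level was 1.52, 0.144, 0, 0.307 and 0.0276 FPKM, and at M6 it was 0, 0.173, 0, 3.65 and 0.381 FPKM. Each stage had 1 or 2 libraries high in CRH and several near 0, and the ranges of all 6 pairs of stages overlapped. By median the stages ran from M2 at 0 through D1 at 0.109 and M4 at 0.144 to M6 at 0.173 FPKM, an order whose neighbours did not differ beyond their spread.

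UCN3, a urocortin that acts through CRHR2 (chromosome 13, 42567440 to 42568402), was above 0 in 7 of 20 libraries. It was highest in M2 replicate 4 at 8.48 FPKM, a library that held 71.7% of the gene's summed FPKM. The next highest were D1 replicate 1 at 1.40, M6 replicate 4 at 0.627, D1 replicate 4 at 0.606, M2 replicate 5 at 0.499 and M6 replicate 5 at 0.190 FPKM. D1 replicate 3 stood at 0.0315 FPKM. All 5 libraries of M4 listed the gene at 0, so no fold change is given against that stage. The library highest in UCN3 carried striatal markers, and its part in the value was not tested.

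The CRH receptor CRHR1 (chromosome 19, 45425812 to 45479430), the receptor that carries the action of CRH on pituitary corticotrophs and on forebrain neurons, was above 0 in 19 libraries. Its level was 0.670, 0.639, 2.80, 1.40 and 0.467 FPKM at D1 and 0.191, 0.840, 2.35, 0.545 and 0.758 FPKM at M2. At M4 it was 1.61, 3.58, 0.661, 0.538 and 0.299 FPKM, the highest value being that of the library with thalamic markers. At M6 it was 0.171, 0.667, 0, 0.187 and 0.929 FPKM, and no library of this stage reached 1 FPKM. The M6 values were the lowest by median, 0.187 FPKM against 0.661 to 0.758 at the other stages, yet the ranges overlapped in all 6 pairs.

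CRHR2 (chromosome 4, 54571851 to 54616940), the receptor for the urocortins, was lower than CRHR1 in 14 of 20 libraries. The D1 libraries held 0.387, 0.663, 0.533, 0.271 and 0.207 FPKM, and the M2 libraries 1.01, 0.427, 0.0788, 0.345 and 0.624 FPKM. The M4 libraries held 0.0421, 0.0841, 2.74, 0.0364 and 0.197 FPKM, and the M6 libraries 1.18, 0.141, 0, 0.888 and 0.431 FPKM. M4 combined the lowest median, 0.0841 FPKM, with the highest single value, and that library, replicate 3, listed CRH, UCN3 and TRHR at 0.

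CRHBP (chromosome 10, 93103603 to 93115182), which binds CRH outside the cell and limits its access to the receptors, was the second most abundant of the 8 by median. It stood at 6.63, 4.75, 4.48, 3.20 and 0.460 FPKM at D1. At M2 it stood at 1.38, 0.903, 0.468, 6.11 and 2.88 FPKM, at M4 at 7.86, 0.132, 0.668, 2.34 and 1.15 FPKM, and at M6 at 4.00, 0.965, 0, 5.37 and 3.59 FPKM. All 4 stages spanned values from under 1 FPKM to over 5 FPKM, with 4 of 5 goats above 3 FPKM at D1 and 3 of 5 at M6. CRHBP exceeded CRH in 18 of 20 libraries. The library with cortical markers, M4 replicate 1, had the highest value of all, and its part in that value was not tested.

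TRH (chromosome 22, 55871200 to 55874590) had the widest range of the 8. Its level was 5.94, 0.950, 0.414, 2.25 and 0.0617 FPKM at D1 and 4.58, 0.454, 0.815, 2.96 and 4.23 FPKM at M2. At M4 it was 0.476, 20.7, 0.417, 0.369 and 0.0745 FPKM, and at M6 it was 0.102, 0.720, 0, 55.002 and 8.79 FPKM. Single goats set the means, since M6 replicate 4 held 50.3% of the summed FPKM of the gene and M4 replicate 2, the library with thalamic markers, was next. The other 4 goats of M4 were all below 0.5 FPKM. TRH exceeded CRH in 18 of 20 libraries.

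TRHR (chromosome 14, 26853520 to 26899637), the receptor coupled to phospholipase C, was 2.49, 0.445, 0.318, 0.441 and 0.128 FPKM at D1. It was 0.342, 0, 0.0865, 1.25 and 1.11 FPKM at M2, 0.399, 0.435, 0, 1.33 and 0.0127 FPKM at M4, and 0.262, 0.609, 0.354, 2.06 and 0.433 FPKM at M6. The stage medians lay between 0.342 and 0.441 FPKM, a narrow band beside the ranges within each stage, and D1 replicate 1 and M6 replicate 4 stood well above the rest of their stages.

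TRHDE (chromosome 5, 1717142 to 2170631), the longest of the genes, was the most abundant and the only one above 1 FPKM in all 20 libraries. It measured 12.7, 3.76, 6.92, 5.55 and 3.92 FPKM at D1 (6.57 ± 3.67, SD, n = 5) and 4.87, 4.53, 2.45, 6.65 and 12.2 FPKM at M2 (6.13 ± 3.68). It measured 20.6, 17.0, 2.06, 4.55 and 4.28 FPKM at M4 (9.69 ± 8.45) and 4.86, 5.11, 1.63, 8.79 and 3.37 FPKM at M6 (4.75 ± 2.65). The higher mean at M4 came from replicates 1 and 2, the libraries with cortical and thalamic markers, and the medians of the 4 stages lay between 4.55 and 5.55 FPKM.

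**Figure D1:**
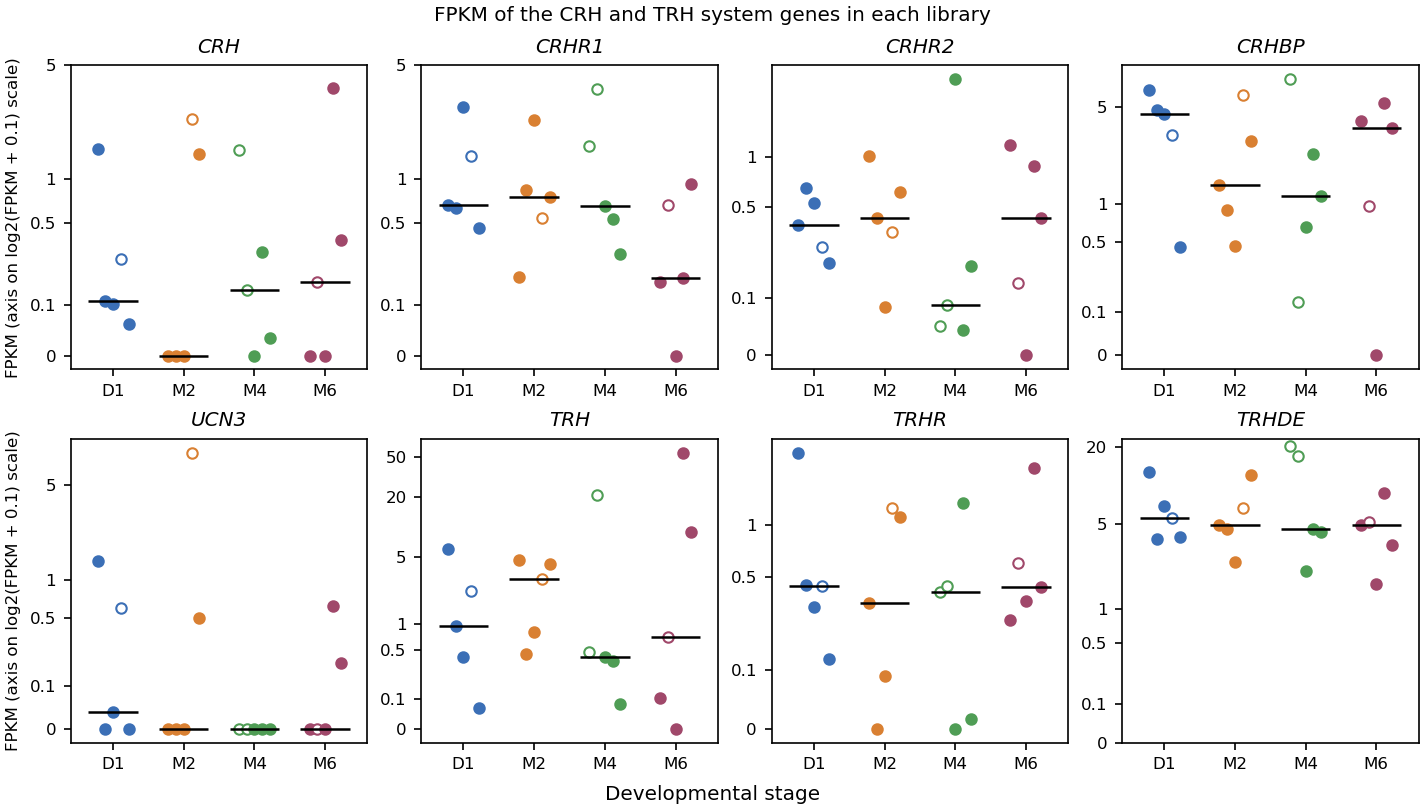
FPKM of each of the 8 genes (vertical axis, spaced on the log2(FPKM + 0.1) scale) in the 5 libraries of each stage, with the stage median as a bar; open points are the 5 libraries high in markers of cortex, striatum or thalamus. The stages overlap for every gene, and CRH, UCN3 and TRH each show a few high libraries above many near 0, such as TRH at 55.002 FPKM in M6 replicate 4.

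Over the 20 libraries the medians ran from TRHDE at 4.86 FPKM through CRHBP at 2.61, TRH at 0.768, CRHR1 at 0.664, TRHR at 0.416 and CRHR2 at 0.366 to CRH at 0.126 and UCN3 at 0. Neighbours in this order overlapped widely. By the mean, TRH ranked next to TRHDE at 5.47 FPKM, ahead of CRHBP at 2.87.

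High levels met in the same goats. M6 replicate 4 was among the 5 highest libraries for 7 of the 8 genes, all but CRHR1, and D1 replicate 1 for 6 of 8. M6 replicate 3 listed 6 of the 8 at 0, all but TRHR and TRHDE. This library stood apart as a whole, with 25.2% of all genes listed at 0, the most of any library, and with a summed FPKM of the 8 neuron markers of 68.1 against stage medians of 682 to 919, and their part in the values was not tested.

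No difference between stages passed the test in any of the 8 genes. In the moderated F test of limma over the 4 stages, which called 0.00596% of the 16771 genes tested, 0 of 8 members were called. That background was 1 gene, and it was 170 with library weights and 17 without D1 replicate 4. At an unadjusted p under 0.05 the same test passed 10.4% of all genes and 0 members. The adjusted p was lowest for CRHR1 at 0.543 and was 0.695 for UCN3, 0.825 for TRHR, 0.841 for TRHDE, 0.847 for CRHBP, 0.910 for CRHR2, 0.930 for TRH and 0.998 for CRH. Stage accounted for 26.7% of the variance of CRHR1, 15.1% of that of UCN3, 3.76% of that of TRH and 0.297% of that of CRH, against a median of 18.2% over all genes tested. With the 5 libraries left out, the adjusted p of the 7 members still tested lay between 0.510 for CRHR1 and 1.00 for CRHR2.

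In pairs of stages, a call needed an adjusted p under 0.05 and a log2 fold change of 1 or more in either direction. The fit called 0% of all genes in M2 vs. D1, M4 vs. M2, M6 vs. M4 and M6 vs. M2, 0.0537% in M4 vs. D1 and 0.00596% in M6 vs. D1, and 0 members in each of the 6 comparisons. The counts over all genes depended on the setting, and with library weights they were 148 in M2 vs. D1, 65 in M4 vs. D1 and 95 in M6 vs. D1, again with 0 members. Of 48 member comparisons, 45 are given, the other 3 being those of UCN3 with M4. At an unadjusted p under 0.05 there were 2 of 45, both of CRHR1, where 6.87% of all genes passed in M6 vs. M4 and 7.41% in M6 vs. D1. In the remaining comparisons that share was 15.6% (M2 vs. D1), 8.68% (M4 vs. M2), 8.71% (M4 vs. D1) and 6.14% (M6 vs. M2), and no member was among them.

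CRHR1 differed by a log2 fold change on the log2(FPKM + 0.1) scale of -1.57 (SE 0.70, 95% interval -3.03 to -0.11) in M6 vs. D1 and of -1.53 (SE 0.70, -2.99 to -0.07) in M6 vs. M4. The adjusted p of limma was 0.638 and 0.7104. Without M6 replicate 3, where the gene was listed at 0, the values were -1.10 and -1.06. Without the 5 libraries high in other regional markers they were -1.72 and -0.95. Neither comparison passed the test under any setting.

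For the other members the interval spanned 0 in every comparison. For CRH the largest estimate was 0.25 (SE 1.11, -2.05 to 2.56) in M6 vs. M4, an interval that reaches beyond a 4-fold difference either way. The CRH estimates were not stable, and that of M2 vs. D1 ran from -1.34 to 2.18 over the other settings. TRH had its largest difference in M4 vs. M2 at -1.19 (SE 1.49, -4.29 to 1.91), which stood at -2.36 with an SE of 1.75 without the 5 libraries, at -0.609 without M4 replicate 5 and at -0.438 with a pseudocount of 1. CRHBP had its largest in M4 vs. D1 at -1.20 (SE 1.03, -3.35 to 0.96), at -1.84 without M4 replicate 1, at -0.565 without M4 replicate 2 and at -1.19 without the 5 libraries. These intervals were wider than the differences themselves, so stage differences of several fold in CRH, TRH or CRHBP were not detectable with 5 goats a stage.

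TRHDE gave the narrowest intervals, with -0.70 (SE 0.57, -1.89 to 0.49) in M6 vs. M4. That value was -0.30 without M4 replicate 1 and 0.19 without the 5 libraries, so its direction rested on the libraries with regional markers. TRHR stood at 0.99 (SE 0.84, -0.75 to 2.73) in M6 vs. M4 and CRHR2 at -0.70 (SE 0.78, -2.32 to 0.93) in M4 vs. M2, where the value was -0.11 without the 5 libraries and -1.49 without M4 replicate 3. UCN3 stood at -0.92 (SE 1.05, -3.11 to 1.26) in M6 vs. M2 and at 0.23 once M2 replicate 4 was left out.

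**Figure D2:**
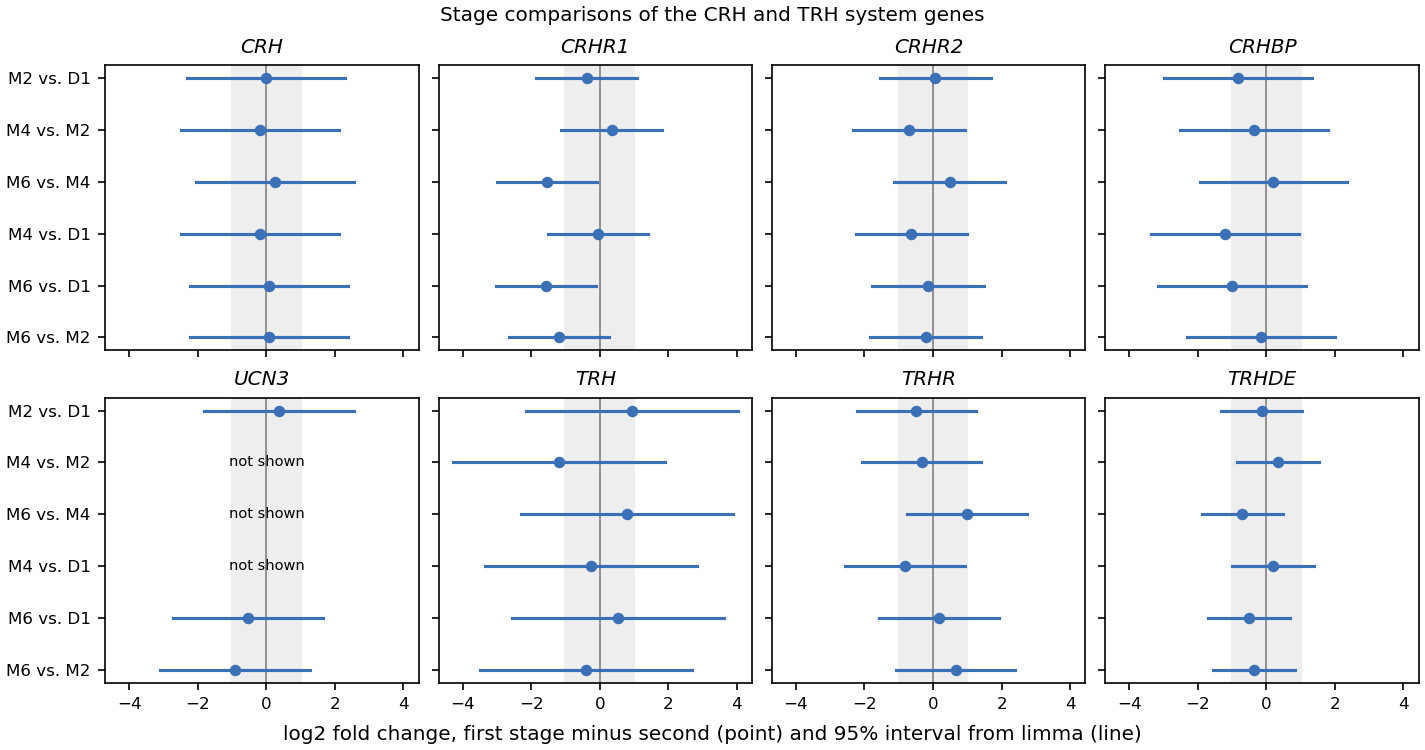
Log2 fold change of each gene (horizontal axis) in each of the 6 stage comparisons, first stage minus second, with its 95% interval from limma as a line; the grey band marks an absolute value under 1, and comparisons of UCN3 with M4 are not shown because all 5 M4 libraries list it at 0. The intervals span 0 except for CRHR1 in M6 vs. M4 and M6 vs. D1, whose adjusted p values were 0.7104 and 0.638.

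The spread between goats of one stage was large for several of the 8 genes. The residual SD of TRH was 2.62 log2 units, larger than that of 99.8% of all genes tested, where the median was 0.568. CRH followed at 1.91 (99.0th percentile), CRHBP at 1.81 (98.5th) and UCN3 at 1.80 (98.4th). The receptors varied less, with 1.42 for TRHR, 1.31 for CRHR2 and 1.18 for CRHR1, and TRHDE had 0.986, at the 80.2nd percentile.

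Spread depends on the level of a gene, so each member was also placed among the 500 genes nearest to it in mean log2(FPKM + 0.1). TRH exceeded 99.6% of its neighbours, whose median SD was 0.777, UCN3 98.8%, CRHBP 98.6% and CRH 97.0%. TRHDE exceeded 91.0% of genes at its level. The 3 receptors lay nearer to their neighbours, with TRHR above 81.6%, CRHR2 above 70.4% and CRHR1 above 68.4%. The ligands and the binding protein thus varied more between goats of one age than most genes at their level, and the receptors less so. This was not particular to the members. The 12 other hypothalamic peptides tested exceeded between 97.8% (GAL) and 100% (HCRT) of genes at their level, SIM1 98% and OTP 97.2%.

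**Figure D3:**
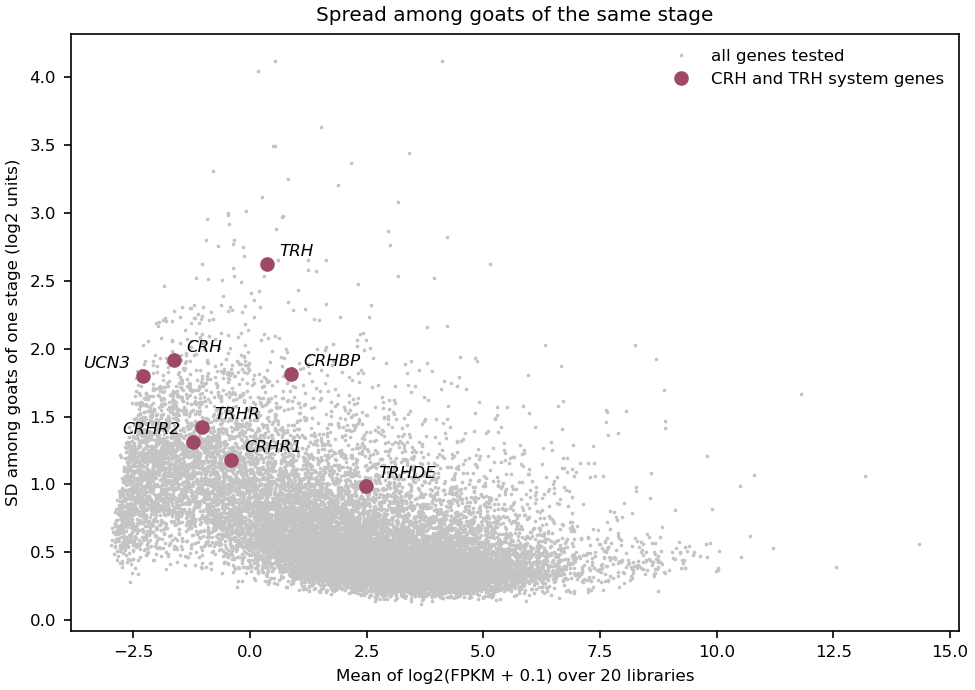
Residual SD between goats of one stage in log2 units (vertical axis) against mean log2(FPKM + 0.1) over the 20 libraries (horizontal axis), with each of the 16771 genes tested as a grey point and the 8 members as large points. TRH at 2.62 and CRHBP at 1.81 lie above most genes of their level, while CRHR1 at 1.18 lies within them.

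Several members varied together across the 20 libraries. Pearson's r of log2(FPKM + 0.1) was positive for 22 of the 28 pairs, with a median of 0.394, and 11 pairs had an r of at least 0.5, as did 11 after each stage was centred on its mean. After adjustment over the 28 pairs, 7 had an adjusted p under 0.05 in a permutation test with 100000 resamples, all 7 also by Spearman's rho, by which 12 passed. FPKM of each library are scaled by its own mapped fragments, and each pair was measured in the same pieces of tissue.

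CRH was a partner in 5 of the 7 pairs. It correlated most closely with TRHR (r = 0.796, permutation p = 3e-05, adjusted p = 0.00084; rho = 0.840, permutation p = 1e-05, the smallest the resampling can give, adjusted p = 0.00028). The r was 0.736 without the 2 libraries farthest from the median of CRH, M2 replicate 4 and M6 replicate 4, and 0.838 over the 15 libraries without strong regional markers. CRH and UCN3, ligands of the same peptide family, followed with r = 0.755 (permutation p = 0.00025, adjusted 0.0035) and rho = 0.724, and with 0.675 without the 2 farthest libraries. UCN3 was listed at 0 in 13 libraries, so the r over 20 libraries largely sets the libraries at 0 against the 7 above 0.

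CRH also correlated with TRHDE (r = 0.668, rho = 0.655, adjusted permutation p = 0.0118), with its binding protein CRHBP (r = 0.638, rho = 0.676, 0.0149) and with TRH (r = 0.611, rho = 0.569, 0.0190). Without the 2 libraries farthest in CRH the values were 0.729, 0.588 and 0.464, so the relation of CRH with TRH rested more than the others on M2 replicate 4 and M6 replicate 4. UCN3 with TRHR (r = 0.624, rho = 0.611, adjusted permutation p = 0.0149) and TRH with TRHR (r = 0.579, rho = 0.563, 0.0308) completed the 7. Over the 15 libraries all 7 had an r of at least 0.5.

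The CRH receptors showed little relation to their ligand over these libraries. The r of CRH was 0.09 with CRHR1 and -0.02 with CRHR2, and that of the receptors with each other was -0.14. For TRH the ligand and the receptor were among the 7 pairs, and for CRH neither receptor was.

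**Figure D4:**
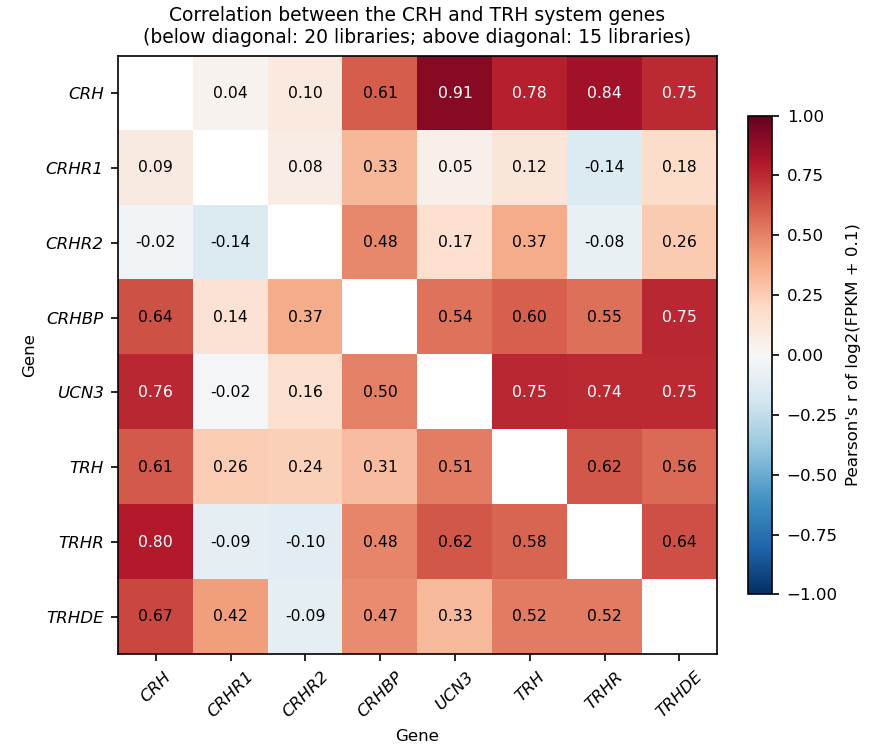
Pearson's r of log2(FPKM + 0.1) between each pair of the 8 genes, below the diagonal over all 20 libraries and above it over the 15 libraries without strong markers of other regions; colour runs from -1 (blue) to 1 (red). CRH is red with UCN3, TRH, TRHR, TRHDE and CRHBP on both sides, from 0.61 to 0.91, and pale with CRHR1 and CRHR2.

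Genes with the most similar patterns were named as up to 3 of the highest Pearson's r over the 20 libraries among annotated genes with a mean of at least 1 FPKM, as a description. For CRH they were GPR176 (r = 0.849), an orphan G protein-coupled receptor, TTC3 (0.834) and GABRG3 (0.830), a subunit of the GABA-A receptor. For CRHBP they were VSTM2L (0.848), HS6ST2 (0.830), a heparan sulfate sulfotransferase, and ANKRD6 (0.808). For TRH they were CMTR1 (0.909), an mRNA cap methyltransferase, EMB (0.846) and CELF3 (0.844), an RNA-binding protein of neurons. For TRHDE they were SLITRK3 (0.872) and CERS6 (0.865), a ceramide synthase. Each of these stayed at an r of at least 0.722 when any single library was left out. The highest library of both genes like TRHDE was M4 replicate 1, and that of the 3 like TRH was M6 replicate 4.

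Among the genes that process neuropeptide precursors, 8 of 9 had an r of at least 0.5 with CRH, against 9.27% of all genes tested. They included CPE (0.550), the carboxypeptidase that trims peptide ends, SCG2 (0.604) and SCG5 (0.568). For TRHDE the count was 7 of 9, against 13.3% of all genes, and for TRH 3 of 9, against 8.81%. It was 6 of 9 for CRHBP (7.39%), 3 of 9 for CRHR1 (7.97%) and 2 of 9 for UCN3 (3.95%). None of the 9 reached 0.5 with CRHR2 (2.50%) or TRHR (2.62%). Genes are not independent of each other, so these counts describe the 20 libraries.

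Other hypothalamic peptides also varied with the releasing hormones. Of the 12 tested, 6 had an r of at least 0.5 with CRH, where 9.27% of all genes did, and 6 with TRH (8.81%). The count was 5 with TRHR (2.62%), 4 with UCN3 (3.95%), 4 with CRHBP (7.39%), 1 with TRHDE (13.3%), 0 with CRHR1 (7.97%) and 0 with CRHR2 (2.50%). Beside the same shares of all genes, the general neuron markers reached 0.5 in 6 of 8 with CRHBP, 4 with TRHDE, 3 with CRH, 3 with CRHR1, 2 with UCN3, 1 with TRHR and 0 with TRH and CRHR2. The mature oligodendrocyte markers were at -0.5 or lower in 3 of 5 with CRH, 2 of 5 with TRH and 5 of 5 with TRHDE, where 2.31%, 3.32% and 6.52% of all genes were. The summed FPKM of these 5 markers ranged from 99.0 to 2805 over the libraries. The part of cell makeup in the correlations was not tested.

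Of the 7 genes on the paraventricular list, 2 had an r of at least 0.5 with CRH (9.27% of all genes), the highest at 0.77. With TRH the count was 0 (8.81%). It was 2 with CRHBP (7.39%), 2 with TRHR (2.62%), 1 with UCN3 (3.95%) and 1 with TRHDE (13.3%). With CRHR1 (7.97%) and CRHR2 (2.50%) it was 0. With TRHDE, 1 gene of the list was also at -0.5 or lower (6.52%). SIM1 had an r of 0.24 with CRH and 0.31 with TRH, and OTP of 0.39 and 0.47, while OTP with TRHR stood at 0.61. M6 replicate 4, highest in CRH and TRH, was also highest in SIM1 at 13.6 FPKM, OTP at 11.1 FPKM and OXT, the oxytocin precursor, at 413 FPKM. M4 replicate 4 was next in SIM1 at 7.39 FPKM and highest in AVP, the vasopressin precursor, at 392 FPKM, yet it held 0.307 FPKM of CRH and 0.369 FPKM of TRH. High AVP also met high CRH and TRH in D1 replicate 1, with AVP at 176, CRH at 1.55 and TRH at 5.94 FPKM. M6 replicate 5, with OXT at 279 FPKM, held TRH at 8.79 FPKM but CRH at only 0.381 FPKM. M6 replicate 2, with OXT at 36.9 and AVP at 57.7 FPKM, held CRH at 0.173 and TRH at 0.720 FPKM. The cortical and thalamic libraries, with SIM1 at 0.00836 and 0.0666 FPKM, held CRH at 1.52 FPKM and TRH at 20.7 FPKM respectively.

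**Figure D5:**
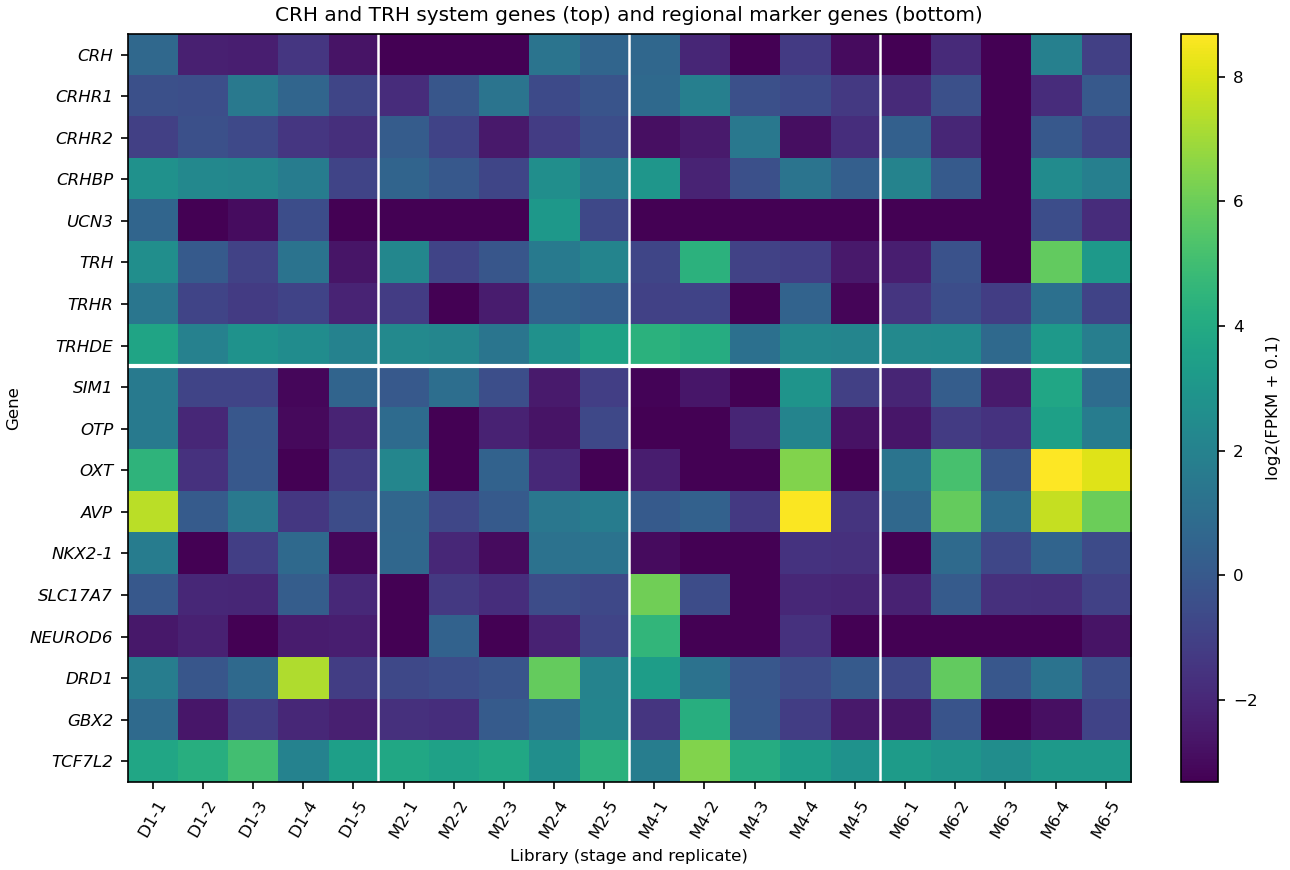
log2(FPKM + 0.1) of the 8 genes (top) and of regional markers and peptide genes (bottom) in each library, ordered by stage and replicate. M6 replicate 4 is bright in CRH, TRH, SIM1, OTP, OXT and AVP together, whereas M4 replicate 1 is bright in SLC17A7 and NEUROD6 with CRHBP and TRHDE, and M4 replicate 2 in GBX2 and TCF7L2 with TRH and TRHDE.

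The other genes of both axes were counted over lists of stress axis, thyroid axis, peptide processing, receptor signalling and paraventricular genes. None of them was called in any of the 6 comparisons by limma. At an unadjusted p under 0.05, the stress axis list had 4 of 7 genes tested in M4 vs. D1 (8.71% of all genes), with a median log2 fold change of -0.27 against -0.07 over all genes, and 3 of 7 in M6 vs. M4 (6.87%), with 0.63 against 0.04. It had 2 in M6 vs. D1 (7.41%), 1 in each of M2 vs. D1 (15.6%) and M4 vs. M2 (8.68%), and 0 in M6 vs. M2 (6.14%). The stress axis list held both directions in M4 vs. D1, where 2 of 7 genes had a positive log2 fold change. From D1 to M4 the mean log2(FPKM + 0.1) rose from 2.49 to 3.37 for HSD11B1 and from 2.90 to 3.45 for NR3C2. It fell from 4.69 to 3.30 for FKBP5 and from 1.03 to -0.350 for POMC. The thyroid axis list had 3 of 7 in M4 vs. D1 (8.71% of all genes), with a median of -0.59, and 3 in M4 vs. M2 (8.68%). It had 2 in M6 vs. D1 (7.41%), 1 in M6 vs. M2 (6.14%) and 0 in the others. The paraventricular list had 0 of 7 in each comparison, and the signalling list 2 of 13 in M6 vs. M4 (6.87% of all genes) and 0 in the others. The processing list had 1 of 9 in each of M2 vs. D1 (15.6% of all genes) and M6 vs. D1 (7.41%).

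Among the stress axis genes, FKBP5, a co-chaperone induced by glucocorticoids, had a log2 fold change of -1.39 (SE 0.46) in M4 vs. D1 with an adjusted p of 0.366 by limma. NR3C1, the glucocorticoid receptor, had 0.57 (SE 0.21) in M6 vs. M4, adjusted p 0.700. POMC, the precursor of ACTH, had -1.66 (SE 0.55) in M4 vs. M2, adjusted p 0.499. AVP, which acts with CRH on the pituitary, had 2.98 (SE 1.81) in M6 vs. M4, adjusted p 0.784, with a spread between goats above that of 99.9% of genes. The remaining urocortins were scarcely measured, with UCN at a mean of 0.0943 FPKM and UCN2 listed at 0 in 19 libraries.

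Among the thyroid axis genes, DIO2, the deiodinase that makes active thyroid hormone in glia and tanycytes, had -2.04 (SE 0.62) in M6 vs. D1, unadjusted p 0.00378 and adjusted p 0.446 by limma. THRB, the receptor that mediates the feedback of thyroid hormone on TRH neurons, had 0.68 (SE 0.42) in M4 vs. D1, adjusted p 0.692. PGPEP1, a peptidase that cleaves TRH inside cells, had 0.11 (SE 0.37) in the same comparison, adjusted p 0.963. Its mean level was 1.41 FPKM, against 6.79 FPKM for the ectoenzyme TRHDE. The receptor THRA and the transporter SLCO1C1 averaged 19.2 and 8.02 FPKM.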

How the data were processed

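Hypothalamic RNA of 20 goats was sequenced from strand-specific libraries. According to the submitters' processing notes, reads were aligned with HISAT2 2.0.5 and assembled with StringTie 1.3.3b, and the deposited values are the FPKM that the authors calculated for each gene, scaled by exon length and by mapped fragments. Gene positions came from RefSeq annotation of the goat build ARS1.2. FPKM values were not whole multiples of a step (at most 2.31% of low genes shared the most common ratio between libraries), so reads were not recovered and precision rests on the spread between goats.

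A gene was tested where 5 or more of the 20 libraries reached 0.1 FPKM, which kept 16771 of 21071 genes and all 8 members. The log2(FPKM + 0.1) values were modelled in limma 3.58.1 (R 4.3.3) in 1 fit of all 4 stages without covariates, with a variance trend. The 6 comparisons and the F test were taken from it, and Benjamini-Hochberg adjustment ran over every gene tested. A call needed an adjusted p under 0.05 and, in pairs, a log2 fold change of 1 or more in either direction. The script was checked on simulated data. Fold changes on this scale understate differences of low genes.

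Correlations were computed in Python 3.11.15 with numpy 2.4.6, pandas 2.3.3 and scipy 1.17.1, two-sided with 100000 permutations, and figures with matplotlib 3.10.9. Named genes were the 8 members, the 3 of highest mean in each list of related genes plus those whose role bears directly on a member, and the 3 most correlated with CRH, CRHBP, TRH and TRHDE. OXT and the markers of other regions were also named, and further genes named with r values were chosen after the values were seen. The members and lists were chosen with earlier results of these data known, and some genes that the rule or the lists would include are not reported here.

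Alternatives were other pseudocounts and filters, fits restricted to 10 libraries, library weights, no variance trend, quantile or median-ratio scaling, a replicate block, the mapping rate in the study's quality table as a covariate, no fold threshold, and the omission of each library in turn. Leaving out 5 libraries high in markers of other regions was chosen after seeing the data.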

Additional observations from a re-analysis of the deposited data

Results flagged for a closer look

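In 10 of the 31 groups of 5 libraries that could be examined, the highest value of a gene stood apart from the rest of its stage by a gap larger than Dixon's 95% limit, where chance gives about 1 in 20. For CRH these were D1 replicate 1 at 1.551 FPKM (next highest 0.268), M4 replicate 1 at 1.517 FPKM (next 0.307) and M6 replicate 4 at 3.653 FPKM (next 0.381). For TRH they were M4 replicate 2 at 20.74 FPKM (next 0.476) and M6 replicate 4 at 55 FPKM (next 8.79). TRHR stood apart in D1 replicate 1 at 2.493 FPKM (next 0.445) and in M6 replicate 4 at 2.055 FPKM (next 0.609). The other isolated values were those of UCN3 in M2 replicate 4 at 8.481 FPKM (next 0.499), CRHBP in M4 replicate 1 at 7.858 FPKM (next 2.34) and CRHR2 in M4 replicate 3 at 2.744 FPKM (next 0.197). The limit assumes values with a normal distribution, and FPKM of low genes are skewed. M6 replicate 4 and D1 replicate 1 hold 5 of the 10, and M4 replicates 1 and 2 and M2 replicate 4, which carried markers of cortex, thalamus and striatum, hold 4.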

How the results depend on the processing

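With limma, 0 members were called in any of the 6 comparisons under each of the 13 other settings and the 20 fits without a single library. The F test also called 0 members wherever it was run, which the fits restricted to 10 libraries did not allow. The lowest adjusted p of a member was 0.212 (CRHR1 in M6 vs. D1 with library weights), and that of the F test was 0.396. Over all genes, the calls in M2 vs. D1, M4 vs. D1, M6 vs. D1 and the F test were 0, 9, 1 and 1, against 148, 65, 95 and 170 with library weights, 10, 33, 20 and 17 without D1 replicate 4, and 1, 2, 21 and 9 without the 5 libraries. A filter on a mean of at least 1 FPKM tested only CRHBP, TRH and TRHDE, and UCN3 was not tested without the 5 libraries. Of the 45 member comparisons, 11 kept their sign under every setting and 34 did not, of which 15 changed sign with the mapping rate as a covariate. Among the comparisons named, CRH in M6 vs. M4 was -0.0198 with a pseudocount of 0.01 and between -0.607 (without M6 replicate 4) and 0.873 (without M4 replicate 1) with single libraries left out. CRHBP in M4 vs. D1 was 0.538 with the mapping rate as a covariate, and TRHDE in M6 vs. M4 was 0.192 without the 5 libraries. UCN3 in M6 vs. M2 lay between -1.418 (without M6 replicate 4) and 0.233 (without M2 replicate 4). No cause was tested. The r of CRH with GPR176 was 0.909 with stages centred and 0.699 by ranks, and that with GABRG3 was 0.900 with stages centred.

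The stages share replicate numbers, but these only name the goats. Deviations of same-numbered libraries correlated between -0.246 and 0.430 (median -0.011 over 30 pairs), and 3 of 20 libraries correlated best with their own number. With the replicate number as a block, 0 members were called, and the lowest adjusted p of the F test was 0.579 for CRHR1, with -1.57 (SE 0.73, adjusted p 0.682) in M6 vs. D1.

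The depth behind each value is unknown and many values were listed at 0, which limits statements on absence.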

Other observations

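The following genes with a high r were chosen after the values were seen. UCN3 had an r of 0.889 with GNRH1, the precursor of gonadotropin-releasing hormone, and of 0.860 with TAC3, the neurokinin B precursor. UCN3 was listed at 0 in 13 libraries, GNRH1 in 12 and TAC3 in 6, so these r values largely set libraries at or near 0 against a few others. M2 replicate 4 was highest in both UCN3, at 8.48 FPKM, and TAC3, at 25.3 FPKM. TAC3 also stood at 0.780 with CRH. TRH had an r of 0.830 with PCSK1N, an inhibitor of prohormone convertase, and of 0.802 with CARTPT, and TRHR of 0.749 with AVP. In the cortical list TBR1 stood at 0.723 with CRH. These are descriptions over 20 libraries without a test.

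For CRHR1 the r with the mean of the receptor signalling list was 0.740, with that of the thalamic markers 0.645 and with that of the neuron markers 0.623, whereas CRH had 0.402, -0.09 and 0.592 with these lists. Singly, 3 of 13, 3 of 6 and 3 of 8 genes of these lists had an r of at least 0.5 with CRHR1 (7.97% of all genes). With CRH it was 1 of 13, 0 of 6 and 3 of 8 (9.27%). With the mean of the processing genes the r was 0.510 for CRHR1 and 0.714 for CRH. CRHR2 had an r of 0.20 with the mean of the other hypothalamic peptides, 0.10 with that of the processing genes and -0.15 with that of the signalling genes.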
